A study of Mus musculus with 2 samples.

Results

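Mouse small cell lung tumour cells in which none of 10 mitotic genes was detected were examined in 2 single-cell RNA libraries, of which 1 is vehicle and 1 is cisplatin. A cell barcode was eligible with at least 500 detected genes, at least 4000 unique molecular identifiers (UMIs, counts of captured transcripts) and at most 10% mitochondrial UMIs. Barcodes with 5 or more UMIs over Hhex, Isl1, Hoxb8, Sfrp5 and Gfra4, genes that mark a separate delta-like tumour group, were dropped, which removed 18 vehicle and 673 cisplatin barcodes. Of the 3139 and 2670 that remained, 394 vehicle and 440 cisplatin barcodes held 0 UMIs over Mki67, Top2a, Cdk1, Ube2c, Birc5, Tpx2, Nusap1, Cenpf, Ccnb2 and Cdc20. These 834 of the 7980 deposited barcodes were thus chosen by their measured UMIs of these genes and are called non-mitotic barcodes here, a name that covers the 10 genes only. They were compared with the 2745 vehicle and 2230 cisplatin barcodes that passed the same steps and held 1 or more mitotic UMIs, called the other barcodes.

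Both libraries came from mice of mixed strain that carried floxed alleles of tumour suppressors including Rb1 and Trp53. They also carried CGRP-CreER, a Cre recombinase that tamoxifen activates and that is expressed from Calca, a gene of neuroendocrine cells. A Rosa26 mTmG reporter, which turns on membrane GFP after recombination, was present in both, and live GFP-positive lung tumour cells were sorted. The vehicle mice received saline, and the treated mice received cisplatin, a drug that crosslinks DNA, over 2 weeks, with 5 mg per kg given every 4 days. Etoposide is named beside cisplatin in the protocol for the libraries, so its use cannot be told from the labels, and the age and number of animals were not given in the sources used here. Each group is 1 library, so no test between groups was possible, and the intervals below cover counting error only.

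In the cell cycle, D and E type cyclins and their kinases inactivate the retinoblastoma protein, which frees E2F factors to switch on the genes of DNA replication. The genes of mitosis follow later, under B-Myb, FOXM1 and NF-Y, and the resting state keeps them silent through the DREAM complex. Small cell lung cancer is a neuroendocrine tumour that typically lacks both RB1 and p53 and divides fast.

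Promoters of 4 mitotic genes are shown because the rule and its nearest readout rest on genes of this kind. Cdk1 (the mitotic kinase) and Ccnb2 (its cyclin B2 partner) belong to the rule, and Prc1 (a spindle midzone protein) and Hmmr (a spindle assembly factor) do not. Each is the 120 bases before the start of the gene in RefSeq (GRCm38.p6), 5′ to 3′ on the gene's strand. Capitals mark TTTGAA (the CHR element of cell cycle genes) or CCAAT (the NF-Y box), on either strand.
Cdk1, chr10:69352913-69353032, minus strand: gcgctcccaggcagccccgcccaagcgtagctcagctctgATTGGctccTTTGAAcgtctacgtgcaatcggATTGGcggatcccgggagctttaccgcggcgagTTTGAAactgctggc
Ccnb2, chr9:70421555-70421674, minus strand: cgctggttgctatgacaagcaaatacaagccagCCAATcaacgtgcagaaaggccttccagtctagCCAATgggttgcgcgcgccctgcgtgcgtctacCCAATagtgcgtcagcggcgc
Prc1, chr7:80294356-80294475, plus strand: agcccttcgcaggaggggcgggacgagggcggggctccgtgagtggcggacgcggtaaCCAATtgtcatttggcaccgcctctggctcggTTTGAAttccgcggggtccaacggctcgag
Hmmr, chr11:40733438-40733557, minus strand: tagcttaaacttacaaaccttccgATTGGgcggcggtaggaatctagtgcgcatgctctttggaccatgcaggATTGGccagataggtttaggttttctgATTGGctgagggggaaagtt
Within 250 bases before the start, CCAAT occurred in 7 of 9 promoters of the rule's genes, in 32 of 43 (74.4%) of the G2 and mitosis genes outside the rule, and in 33.8% of all 32851 promoters of that length. TTTGAA occurred in 6 of 9, in 10 of 43 (23.3%) and in 16.0%. In the promoters of G1/S and DNA replication genes, CCAAT occurred in 26 of 42 (61.9%) and TTTGAA in 5 of 42. These letters describe the window and do not show binding.

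The libraries held 32519922 vehicle and 28777462 cisplatin UMIs, with a median of 8168 and 5925 per barcode, and 23 barcode sequences occurred in both. Non-mitotic barcodes were shallower than the others. Their median was 7253.5 against 9045 UMIs in vehicle and 5133 against 6968.5 in cisplatin, with 2951 and 2232 detected genes. The mitochondrial share was 2.89% against 2.68% and 3.74% against 3.15%. All 394 and 440 non-mitotic barcodes held at least 3 of 12 neuroendocrine markers (median 9), as did 99.9% of the other barcodes in each library. Free RNA in the droplets can add UMIs of such markers, so this count cannot tell tumour cells from other cells. Of the non-tumour marker sets, 3 or more markers were met in 1 vehicle barcode (endothelial) and 1 cisplatin barcode (macrophage), which also passed the neuroendocrine count. All 3 basal markers were at 0 UMIs in the non-mitotic barcodes of both libraries. Of 6 fibroblast markers 5 were at 0, and Dcn held 133 UMIs in vehicle and 22 in cisplatin, which puts the summed level at 46.3 against 42.5 CPM in the other vehicle barcodes and 8.80 against 19.1 CPM in cisplatin (CPM, UMIs of the gene per 1e6 UMIs of the class). Of 4 tuft markers 2 were at 0, with 4 and 3 UMIs in all. The summed macrophage level was 15.7 against 21.0 CPM and 64.0 against 19.4 CPM, and the endothelial level 15.3 against 4.25 CPM and 3.60 against 3.77 CPM. The T cell, B cell, neutrophil and alveolar sums lay between 0.348 and 27.5 CPM in the non-mitotic barcodes, and the ciliated sum was 20.2 and 39.6 CPM. The summed erythroid level was 58.1 CPM in vehicle and 0.4 CPM in cisplatin, against 48.0 and 0.813 CPM in the other barcodes. The summed club cell level, nearly all Scgb1a1, was 188 and 500 CPM against 939 and 507 CPM in the other barcodes. The part of these cell types in the results was not tested.

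The share of eligible barcodes without mitotic UMIs was 12.6% (exact 95% Clopper-Pearson interval 11.4 to 13.8) in vehicle and 16.5% (15.1 to 17.9) in cisplatin. The order turned once depth was equalised. With every eligible barcode thinned at random to 4000 UMIs before the rule, the share was 28.0% (26.4 to 29.6) in vehicle and 25.1% (23.4 to 26.7) in cisplatin. The share differed with the depth of the barcode in both libraries. From 4000 to under 5000 UMIs it was 23.3% in vehicle and 32.8% in cisplatin, and from 5000 to under 6000 UMIs it was 24.6% and 24.4%. From 6000 to under 8000 UMIs it was 18.2% and 10.3%, with intervals that did not overlap (15.5 to 21.1 and 8.09 to 12.8). From 8000 to under 12000 UMIs it was 11.1% and 6.66%. At 12000 UMIs or more only 6 of 671 vehicle and 4 of 204 cisplatin barcodes were non-mitotic. Thinning left the same split, with 36.1% against 19.9% of barcodes from 6000 to under 8000 UMIs and 26.3% against 36.3% of barcodes under 5000 UMIs. Neither library therefore had the higher share at all depths.

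**Figure D1:**
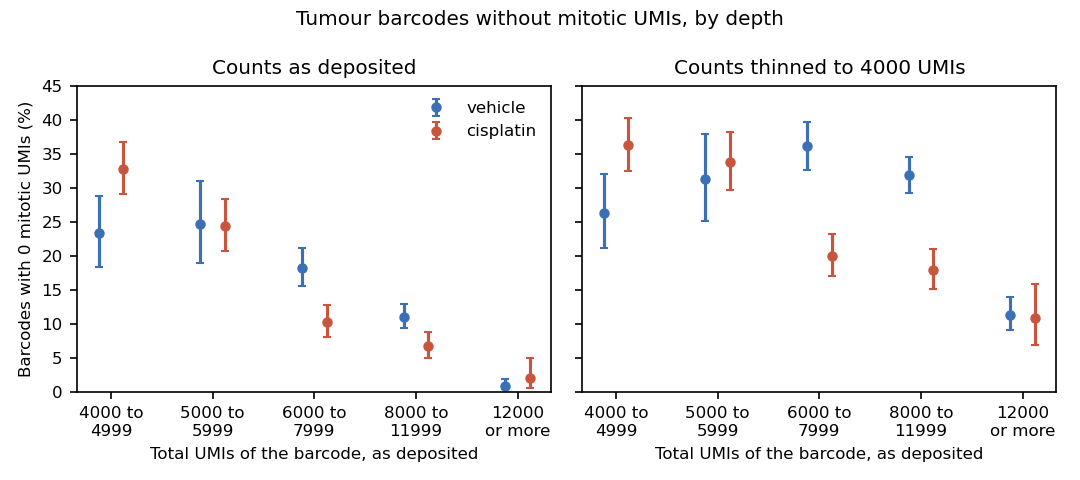
Share of eligible tumour barcodes with 0 UMIs over the 10 mitotic genes (y axis, percent) by the barcode's deposited total UMIs (x axis), for vehicle (blue) and cisplatin (red), as deposited (left) and after thinning to 4000 UMIs (right). Points are shares and bars exact 95% intervals; below 5000 UMIs cisplatin lies higher (32.8% against 23.3% as deposited), from 6000 to under 8000 UMIs vehicle does (18.2% against 10.3%).

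Barcodes just outside the rule were close to those inside it. Exactly 1 mitotic UMI was found in 588 vehicle and 527 cisplatin barcodes. The summed level of 50 G2 and mitosis genes outside the rule was 444 CPM with 0 and 470 CPM with 1 mitotic UMI in vehicle, and 480 and 522 CPM in cisplatin. All other barcodes together reached 4134 and 5331 CPM, and those with 50 or more mitotic UMIs 13796 and 11934 CPM. The summed G1/S and DNA replication level was 2707 CPM with 0 and 3052 CPM with 1 mitotic UMI in vehicle, 2650 and 3036 CPM in cisplatin, and peaked at 6977 and 7786 CPM in barcodes with 5 to 19. At the depth threshold, 36 of 142 vehicle and 107 of 296 cisplatin barcodes with fewer than 500 UMIs above it were non-mitotic, against 50 of 167 and 96 of 264 with up to 500 UMIs less. At the threshold on delta-like genes, 6.80% of vehicle and 13.1% of cisplatin barcodes with 1 to 4 UMIs of those genes were non-mitotic, against 11.5% (6 of 52) of cisplatin barcodes with 5 to 8.

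**Figure D2:**
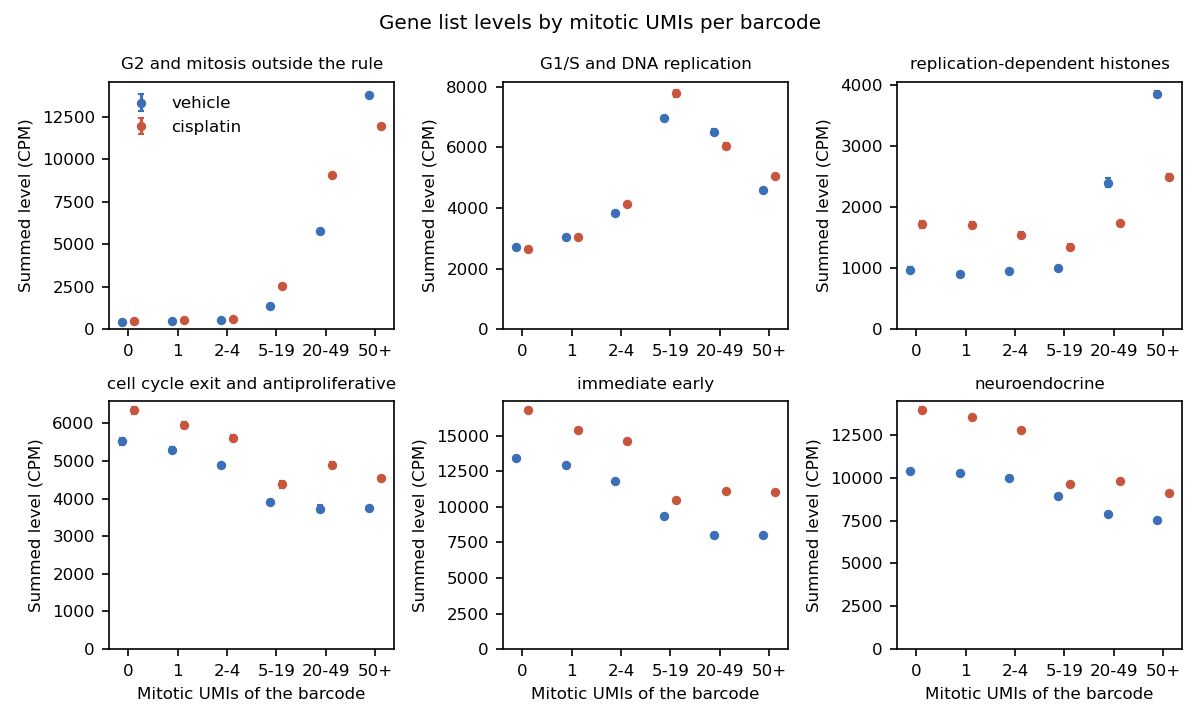
Summed level of 6 gene lists in CPM (y axis) by the number of mitotic UMIs in the barcode (x axis), for vehicle (blue) and cisplatin (red), with exact 95% Poisson bars that are mostly smaller than the points. The G2 level stays between 444 and 617 CPM up to 4 mitotic UMIs and then climbs, while the G1/S level is highest in barcodes with 5 to 19.

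Absence of the 10 transcripts was not absence of cell cycle transcripts. After thinning to 4000 UMIs, 81.0% of vehicle and 82.3% of cisplatin non-mitotic barcodes held at least 1 UMI of the 50 G2 and mitosis genes outside the rule, although no barcode held more than 7. The median was 2 UMIs in both libraries, against 3 and 5 UMIs in the other barcodes, of which the highest held 148 and 139. At least 5 UMIs of the G1/S list were found in 88.1% and 84.8%. No non-mitotic barcode lacked both lists, for which the exact 95% interval reaches 0.932% in vehicle and 0.835% in cisplatin. Free RNA in the droplets can add single UMIs, and its part was not tested.

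For each gene the CPM of the 2 classes was set side by side, and log2 ratios were taken after adding 1 CPM to each. A gene was measured with 50 or more UMIs over both classes and called with a 1.5-fold difference in CPM, and it is described as clear of counting error where the exact 95% Poisson intervals of both levels were also apart. Since the rule chose the cells, these ratios are descriptions. In vehicle, 382 of 12423 genes (3.07%) were higher and 1518 (12.2%) lower in non-mitotic barcodes, of which 149 (1.20%) and 883 (7.11%) were clear of counting error. In cisplatin, 533 of 11537 (4.62%) were higher and 1514 (13.1%) lower, and 278 (2.41%) and 905 (7.84%) were clear. List counts below are to be read beside these shares of all genes. Counts were also simulated at these depths, as Poisson draws of the class sums without any spread between barcodes. The simulated shares thus cover counting error only and are no measure for genes whose UMIs lie in few barcodes. Of unchanged genes, 5.45% in vehicle and 5.49% in cisplatin passed 1.5-fold, both directions together. With intervals also apart, 0.466% and 0.450% did. Of genes with a simulated 1.5-fold change, 43.2% and 46.7% were called. Among the 11472 genes measured in both libraries, 561 were lower in both and clear of counting error, which is 68.5% of such genes in vehicle and 62.2% in cisplatin. For higher genes the overlap was 41, which is 30.1% and 14.9%.

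All 50 of the measured G2 and mitosis genes outside the rule were lower in both libraries, clear of counting error, with a median log2 ratio of -3.41 in vehicle and -3.49 in cisplatin. Over all genes the medians were -0.02 and -0.04. Hmmr (chr11:40701395-40733422, minus strand) measured 3.13 CPM (interval 1.43 to 5.95) in non-mitotic and 119 CPM (115 to 124) in other vehicle barcodes. In cisplatin it measured 1.60 CPM and 105 CPM. Plk1, the polo kinase that drives mitotic entry, measured 3.83 against 68.7 CPM in vehicle and 1.60 against 65.9 CPM in cisplatin. Bub1, a spindle checkpoint kinase, measured 1.39 against 27.4 CPM in vehicle and was at 0 UMIs in cisplatin, at most 1.20 CPM by the limit of 3 counts, against 34.9 CPM. Prc1, whose promoter is shown above, measured 13.2 against 222 CPM and 13.6 against 294 CPM.

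Outside the lists, Esco2, which establishes sister chromatid cohesion in S phase, measured 0.696 against 52.6 CPM in vehicle and 1.60 against 58.4 CPM in cisplatin. Casc5, a kinetochore scaffold, measured 2.79 against 72.6 CPM and 2.0 against 64.4 CPM. Cdkn3, a phosphatase of cyclin-dependent kinases, measured 3.48 against 44.1 CPM and 2.0 against 58.9 CPM. The 10 lowest ratios of vehicle also included Anln, Cenpe, Kif23, Ckap2l, Dlgap5 and Cenpa, genes of cytokinesis, centromere and spindle. Cks2, which binds the mitotic kinase, measured 59.5 against 387 CPM in vehicle and 90.4 against 799 CPM in cisplatin.

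Most genes of DNA synthesis were lower. Of 50 measured G1/S and DNA replication genes in vehicle 37 were lower and none higher, and of 49 in cisplatin 38 were lower and none higher, each of these clear of counting error. The list medians were -0.96 and -0.94. Rrm2, the S phase subunit of ribonucleotide reductase, measured 11.5 CPM (7.91 to 16.1) against 120 CPM (116 to 124) in vehicle and 13.2 against 213 CPM in cisplatin. Ccne2 (chr4:11191351-11204779, plus strand), the cyclin E2 that acts at the start of S phase, measured 52.2 against 127 CPM in vehicle and 60.4 against 154 CPM in cisplatin. Ccne1 measured 22.6 against 63.5 CPM and 11.2 against 32.7 CPM. Pcna, the sliding clamp of DNA polymerase, measured 152 against 287 CPM and 194 against 333 CPM. These 4 genes were low in the non-mitotic barcodes of both libraries.

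The minichromosome maintenance (MCM) helicase genes, which license replication origins in G1, included members on both sides of the 1.5-fold call. Mcm2 (chr6:88883474-88898780, minus strand) measured 148 CPM (134 to 162) against 159 CPM (154 to 164) in vehicle and 120 CPM (106 to 134) against 134 CPM (128 to 139) in cisplatin, so the intervals overlapped in both. Mcm4 measured 51.2 against 57.5 CPM and 52.0 against 62.9 CPM, and Mcm6 121 against 137 CPM and 102 against 126 CPM. Neither was called, though both were below the other barcodes in each library. Mcm5 and Mcm7 of the same complex were lower, with log2 ratios of -0.78 and -0.84 in vehicle and -0.89 and -0.95 in cisplatin. Mcm4, Mcm5, Mcm6 and Mcm7 were picked after their values were seen.

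Replication-dependent histone genes make core and linker histones during S phase, and their transcripts largely lack poly(A) tails, which limits their capture. In vehicle 18 of 31 measured gene identifiers were lower and none higher, 12 of the lower ones clear of counting error. In cisplatin 8 of 21 were lower and 2 higher, 6 and 0 of them clear. Hist1h2ap measured 11.1 against 115 CPM in vehicle and 6.80 against 52.6 CPM in cisplatin, and Hist1h2ae 15.0 against 129 CPM and 2.80 against 24.3 CPM. Hist1h2al, which the list does not hold, went the other way, at 28.6 against 20.3 CPM and 90.4 against 39.9 CPM. Near-identical histone genes share sequence, so single members are uncertain.

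Inhibitors of cyclin-dependent kinases (CDKs) were mostly not higher in the barcodes without mitotic transcripts. Of 14 measured CDK inhibitors, D cyclins and pocket proteins in vehicle 5 were lower and 1 higher, all clear of counting error. In cisplatin 5 of 14 were lower and 3 higher, 4 and 2 of them clear. Over all genes 12.2% were lower and 3.07% higher in vehicle, and 13.1% and 4.62% in cisplatin. Cdkn2d (chr9:21288410-21291407, minus strand), an inhibitor of CDK4 and CDK6, measured 65.1 CPM (56.1 to 75.1) against 222 CPM (216 to 228) in vehicle and 68.4 CPM (58.5 to 79.4) against 270 CPM (262 to 278) in cisplatin. Cdkn2a, which encodes p16 and ARF, measured 122 against 213 CPM and 44.8 against 98.0 CPM. Both genes were lower in the non-mitotic barcodes of each library.

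Cdkn1a (chr17:29090976-29100727, plus strand), the CDK inhibitor p21 and a p53 target, measured 276 CPM (257 to 296) against 449 CPM (441 to 457) in vehicle. In cisplatin it measured 445 CPM (420 to 472) against 547 CPM (536 to 558) and was not called. In barcodes of 4000 to 8000 UMIs only, the vehicle log2 ratio of Cdkn1a was -0.46 in place of -0.70, which is no longer 1.5-fold. Cdkn1c, the imprinted inhibitor p57, measured 56.8 against 58.8 CPM in vehicle and 42.0 against 90.3 CPM in cisplatin. Cdkn1b, the inhibitor p27 that is classically high in resting cells, measured 180 against 180 CPM in vehicle and 123 against 156 CPM in cisplatin. Cdkn2b, the inhibitor p15, measured 10.4 against 5.34 CPM in cisplatin and was the only inhibitor of the list called higher in either library. The differences between libraries were not tested.

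Ccnd2 (chr6:127125162-127152193, minus strand), the cyclin D2 that partners CDK4 and CDK6, was higher in non-mitotic barcodes of both libraries. It measured 9.05 CPM (5.91 to 13.3) against 1.20 CPM (0.825 to 1.68) in vehicle and 24.0 CPM (18.3 to 30.9) against 7.55 CPM (6.30 to 8.96) in cisplatin. The vehicle value was 26 UMIs in 3 barcodes, 14 of them in 1. The cisplatin value was 60 UMIs in 21 barcodes. Ccnd1 measured 5.57 against 4.72 CPM in vehicle and 11.2 against 7.37 CPM in cisplatin, with overlapping intervals.

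Meg3 (chr12:109541001-109571726, plus strand), an imprinted long noncoding RNA with growth-restraining activity, had a similarly uneven spread. It measured 38.0 CPM (31.2 to 45.8) against 11.5 CPM (10.3 to 12.9) in vehicle and 285 CPM (264 to 306) against 114 CPM (109 to 119) in cisplatin. In vehicle 105 of its 109 UMIs lay in 4 barcodes. In cisplatin 118 barcodes held 1 or more of 712 UMIs, and 51 held 5 or more. Those 51 barcodes held 51 of the 60 Ccnd2 UMIs, and 17 of the 21 barcodes with Ccnd2 were among them. Of the 51, 17 held at least 1 UMI of the delta-like genes used for the drop, against 128 of all 440 non-mitotic cisplatin barcodes. The overlap of Meg3 and Ccnd2 was also met in the other cisplatin barcodes. There 120 barcodes with 5 or more Meg3 UMIs held 97 of 130 Ccnd2 UMIs and 32 of the 55 barcodes with Ccnd2. The cisplatin log2 ratio of Meg3 was -1.03 in place of 1.32 when the dropped delta-like barcodes were put among the other barcodes. All 673 were added to that side only, including 87 without mitotic UMIs. A gene high in the delta-like barcodes must then have a lower ratio, so this alternative cannot show how members of both kinds compare. The same holds wherever these barcodes are put among the others below.

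**Figure D3:**
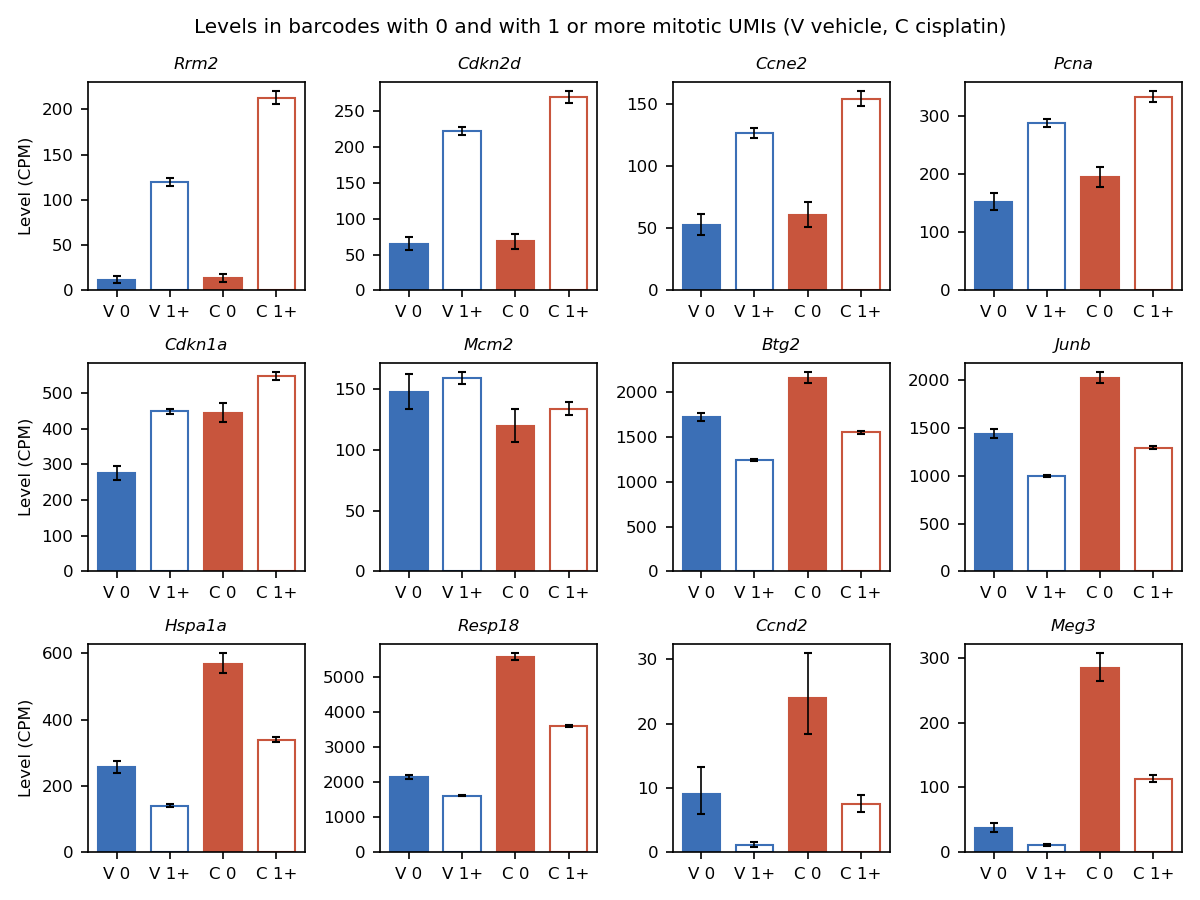
Levels in CPM (y axes, from 0) of 12 genes in vehicle (V, blue) and cisplatin (C, red) barcodes with 0 (filled) and 1 or more (open) mitotic UMIs, with exact 95% Poisson bars. Rrm2, Cdkn2d, Ccne2 and Pcna are low without mitotic UMIs, Mcm2 is near equal (148 and 159 CPM in vehicle), and Btg2, Junb, Hspa1a, Resp18, Ccnd2 and Meg3 are higher.

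Of 30 measured genes linked to cell cycle exit, 2 were higher and 3 lower in vehicle, and 2 higher and 1 lower in cisplatin. Of all genes, 3.07% were higher and 12.2% lower in vehicle, and 4.62% and 13.1% in cisplatin. The list median was 0.21 and 0.18 against -0.02 and -0.04 over all genes. Btg2 (chr1:134075170-134079120, minus strand), an antiproliferative cofactor of mRNA decay, measured 1726 against 1245 CPM in vehicle and 2164 against 1555 CPM in cisplatin, short of 1.5-fold. Gadd45g, a growth arrest gene, measured 397 against 280 CPM and 538 against 344 CPM and was called in cisplatin, though not with the delta-like barcodes put among the others (log2 0.45 in place of 0.64). Ccng2, a cyclin usually raised in resting cells, was lower, at 11.5 against 30.7 CPM and 19.2 against 41.8 CPM. The summed level of the list was 5519 CPM in vehicle barcodes with 0 and 3740 CPM in those with 50 or more mitotic UMIs, and 6343 and 4541 CPM in cisplatin.

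Immediate early genes, which respond within minutes to growth factors, stress or tissue dissociation, had the highest list median of those examined. Of 23 measured genes 2 were higher in vehicle and 4 in cisplatin, and none was lower in either. The medians were 0.32 and 0.38. Junb (chr8:84974484-84978718, minus strand), an AP-1 subunit, measured 1441 against 994 CPM in vehicle and 2023 against 1292 CPM in cisplatin. Fos measured 3125 against 2351 CPM and 3727 against 2784 CPM. Klf2 measured 289 against 197 CPM and 222 against 137 CPM. In barcodes of 4000 to 8000 UMIs, 1 of 22 measured genes was higher in each library, and the list median less that of all genes was 0.24 and 0.27 in place of 0.34 and 0.42. Junb was 0.46 in cisplatin there in place of 0.65, below 1.5-fold, and Klf2 was 0.46 in place of 0.69 at a minimum of 6000 UMIs. Dissociation was common to all barcodes of a library, and its part was not tested.

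Among heat shock proteins, 2 of 16 were higher in vehicle, and 3 were higher and 1 lower in cisplatin. Hspa1a (chr17:34969190-34972156, minus strand), an inducible HSP70 chaperone, measured 257 CPM (238 to 276) against 141 CPM (136 to 145) in vehicle and 570 CPM (540 to 600) against 340 CPM (332 to 349) in cisplatin. After thinning, 28.7% of vehicle non-mitotic barcodes held a Hspa1a UMI against 20.7% of the others, and 51.4% against 40.2% in cisplatin. In barcodes of 4000 to 8000 UMIs its log2 ratio was 0.57 and 0.56 in place of 0.86 and 0.74, just short of 1.5-fold. Hspa1b, a near-identical copy that can share reads with Hspa1a, measured 7.66 against 5.89 CPM and 42.8 against 23.2 CPM. Dnajb1, an HSP40 partner of these chaperones, measured 605 against 401 CPM and 868 against 617 CPM, and its vehicle log2 ratio was 0.44 in place of 0.59 in barcodes of 4000 to 8000 UMIs.

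**Figure D4:**
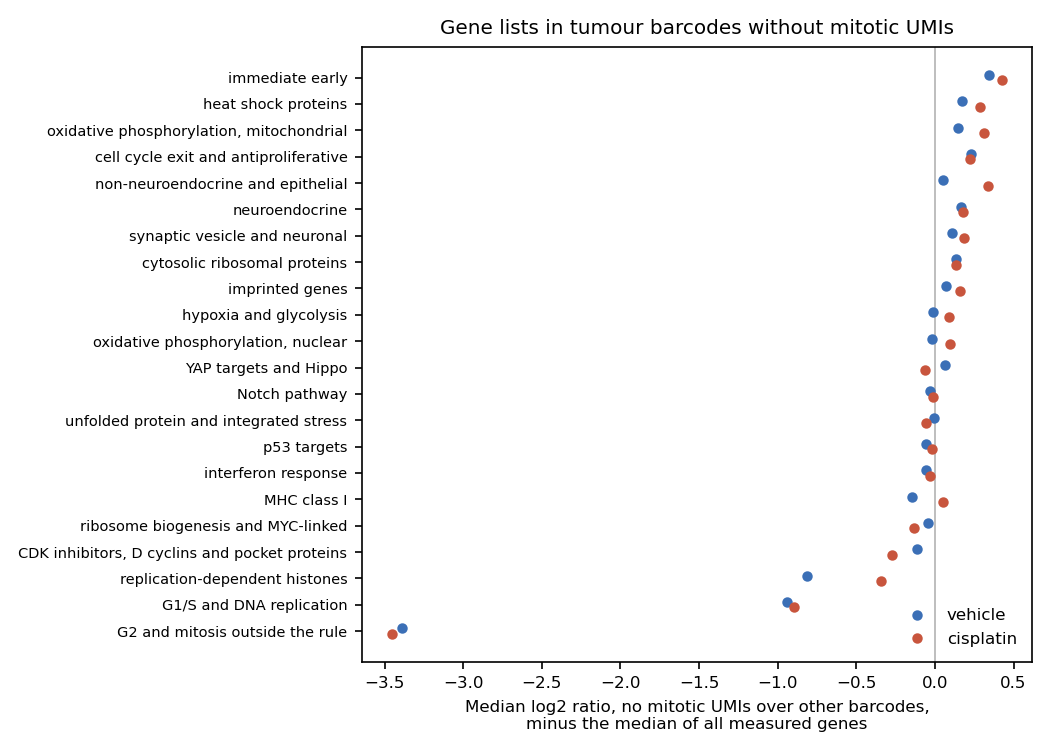
Median log2 ratio of each gene list in non-mitotic over other barcodes, less the median of all measured genes (x axis), for vehicle (blue) and cisplatin (red), lists in rows by their mean. The G2, G1/S and histone lists lie lowest (-3.39, -0.94 and -0.82 in vehicle) and the immediate early list highest (0.34 in vehicle and 0.42 in cisplatin), with the remaining lists within 0.34 of 0.

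The neuroendocrine programme was present throughout. Of 26 measured genes none was higher and 1 lower in vehicle, and 2 were higher and 1 lower in cisplatin. Resp18 (chr1:75272199-75278415, minus strand), a protein of the secretory pathway, measured 2144 against 1614 CPM in vehicle and 5587 against 3600 CPM in cisplatin, where it was called. Scg5, a chaperone of prohormone convertase, measured 340 against 282 CPM and 609 against 387 CPM. The cisplatin calls of both ended under an alternative, Resp18 at 0.54 in barcodes of 4000 to 8000 UMIs and Scg5 at 0.04 with the delta-like barcodes among the others. Grp, which encodes gastrin-releasing peptide, was lower, at 1.39 against 5.05 CPM and 1.20 against 5.34 CPM. Synaptic and neuronal genes showed 0 higher and 4 lower of 27 in vehicle and 0 higher and 1 lower of 25 in cisplatin. For both lists, the shares of all genes higher and lower were 3.07% and 12.2% in vehicle and 4.62% and 13.1% in cisplatin.

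Other tumour cell programmes had few calls, in both directions. The shares of all genes beside them are 3.07% higher and 12.2% lower in vehicle, and 4.62% and 13.1% in cisplatin. In the Notch pathway, 2 genes were higher and 2 lower of 17 in vehicle, and 2 higher and 5 lower of 17 in cisplatin, of which 2 and 2 and then 0 and 2 were clear of counting error. Hes1, the Notch target that marks non-neuroendocrine tumour cells, measured 24.0 against 33.1 CPM in vehicle and 66.0 against 109 CPM in cisplatin. Nrarp, a feedback inhibitor of Notch, measured 8.01 against 18.2 CPM and 5.60 against 19.1 CPM. Jag1, a ligand, measured 19.5 against 12.1 CPM and 35.2 against 29.4 CPM, and its vehicle ratio was 0.25 in place of 0.65 with rule and counts thinned. In the YAP and Hippo list, 1 gene was higher and 1 lower of 17 in vehicle, and none higher and 3 lower of 15 in cisplatin. Its called lower gene in both libraries was Tead2, a partner of YAP, at 0.696 against 6.94 CPM and 0.400 against 3.66 CPM.

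Of 26 measured p53 targets in vehicle 1 was higher and 7 lower, and of 28 in cisplatin none was higher and 6 lower. Clear of counting error were 1 and 4 in vehicle and 0 and 3 in cisplatin. The list median was -0.08 and -0.07 against -0.02 and -0.04 over all genes. Over all genes 3.07% were higher and 12.2% lower in vehicle, and 4.62% and 13.1% in cisplatin. Gtse1, a G2 and S phase gene, was lowest, at 1.04 against 13.8 CPM and 0.80 against 14.5 CPM. Gdf15, a stress-induced cytokine, measured 4.18 against 11.6 CPM and 4.8 against 15.6 CPM. The floxed genes were low and not informative on deletion, since 3′ tags need not lie in the deleted part. Rb1 (chr14:73183673-73325822, minus strand) measured 13.9 against 20.3 CPM in vehicle and 8.0 against 15.1 CPM in cisplatin. Trp53 (chr11:69580359-69591873, plus strand) measured 68.9 against 73.3 CPM and 76.8 against 77.7 CPM. Epithelial and non-neuroendocrine genes showed 2 higher and 3 lower of 19 in vehicle and 5 higher and 1 lower of 19 in cisplatin. Of these, 1 and 3 and then 3 and 1 were clear of counting error. The higher calls in cisplatin included Lgals3, whose log2 ratio was -1.55 in place of 1.21 without barcodes holding 3 or more markers of another cell type. Cldn4, a tight junction claudin, measured 94.7 against 61.5 CPM and 158 against 80.6 CPM.

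Ribosomal and respiratory genes were not called in either direction. None of 83 cytosolic ribosomal protein genes, 55 nuclear or 13 mitochondrial respiratory chain genes passed 1.5-fold in vehicle or in cisplatin. Of 30 ribosome biogenesis genes linked to MYC, 1 was lower in vehicle and 5 in cisplatin, with Ran, a nuclear transport GTPase, among both. In barcodes of 4000 to 8000 UMIs the vehicle ratio of Ran was -0.39 in place of -0.67, below 1.5-fold. Aldoa, a glycolytic aldolase, measured 670 against 490 CPM and 748 against 432 CPM and was called in cisplatin.

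Beyond Meg3 and Hspa1a, the highest ratios in vehicle included those of Mapk10, Fbxo32, Phf1, Mvp, Riiad1, Sema4c and Gas6, at log2 0.76 to 0.85. Mapk10, the neuronal kinase JNK3, measured 79.4 against 43.6 CPM in vehicle and 52.0 against 33.7 CPM in cisplatin. Phf1, a Polycomb cofactor, measured 28.6 against 15.5 CPM and 28.4 against 13.9 CPM. Gas6, a ligand of the AXL family first found in growth-arrested cells, measured 70.7 against 41.2 CPM and 86.8 against 48.7 CPM. Mvp, the major vault protein, measured 38.3 against 21.4 CPM and 31.2 against 18.1 CPM. Sema4c, a semaphorin, measured 26.1 against 14.9 CPM in vehicle and 9.99 against 10.0 CPM in cisplatin, and the difference between the libraries was not tested. In barcodes of 4000 to 8000 UMIs the vehicle log2 ratios of Mapk10 and Gas6 were 0.43 and 0.38, below 1.5-fold, and those of Phf1 and Mvp were 0.68 and 0.74.

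The highest ratios in cisplatin were partly the content of single barcodes. Lyz2 and Cd74, at 40.4 against 4.59 CPM and 88.0 against 33.5 CPM, had 95 of 101 and 191 of 220 UMIs in 1 barcode each. Without barcodes holding 3 or more markers of another cell type, Lyz2 measured 2.40 against 2.16 CPM and Cd74 11.6 against 8.75 CPM. Iapp, the islet amyloid peptide, had 246 of its 485 UMIs in 1 barcode. Other leading genes were Tubb2b, a neuronal beta tubulin, at 44.4 against 18.9 CPM, and G0s2, named for the G0 to G1 switch, at 50.4 against 23.3 CPM. Nap1l5, an imprinted nucleosome assembly gene, measured 78.4 against 36.4 CPM, and Snhg11, a noncoding RNA of neuronal cells, 53.2 against 25.7 CPM. With the delta-like barcodes put among the others, their log2 ratios were 0.42 and 0.17 in place of 1.09 and 1.02. In vehicle the levels were 25.4 against 23 CPM for Tubb2b and 36.9 against 24.4 CPM for G0s2.

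Between the libraries, the non-mitotic barcodes of cisplatin showed 479 of 8866 genes (5.40%) higher and 1802 (20.3%) lower than those of vehicle. Of these, 353 (3.98%) and 1154 (13.0%) were clear of counting error. In counts simulated for this comparison, again with counting error only, 2.97% of unchanged genes passed 1.5-fold, and 0.242% did with intervals also apart. The median of all genes was -0.15, and the split moved with the scaling. With TMM scaling 841 were higher and 1223 lower, and with median-of-ratios scaling 879 and 1176, so 40.7% and 42.8% of called genes were higher in place of 21.0%. The other barcodes gave 730 of 12903 (5.66%) higher and 2579 (20%) lower, of which 625 (4.84%) and 2323 (18.0%) were clear. Treatment, animals and library cannot be told apart here.

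Interferon-stimulated genes were higher in 7 of 19 measured cases and lower in none, with a list median of 0.57 above that of all genes. In the other barcodes 9 of 24 were higher and 2 lower. Ifit1, an antiviral RNA-binding protein, measured 50.1 CPM (42.3 to 59.0) in vehicle and 186 CPM (170 to 204) in cisplatin non-mitotic barcodes, against 46.4 and 114 CPM in the others. Isg15, a ubiquitin-like modifier, measured 26.8 and 68.4 CPM, against 37.3 and 85.1 CPM. Among neuroendocrine genes 7 of 25 were higher and 4 lower. In the other barcodes 5 of 26 were higher and 2 lower. The shares of all genes beside both lists were 5.40% higher and 20.3% lower in non-mitotic barcodes. Resp18 measured 2144 and 5587 CPM, and 1614 and 3600 CPM in the other barcodes.

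Of 12 measured CDK inhibitors, D cyclins and pocket proteins 3 were higher and 1 lower in cisplatin. In the other barcodes 3 of 14 were higher and 2 lower. Among all genes 5.40% were higher and 20.3% lower in non-mitotic barcodes. Cdkn1a measured 276 CPM in vehicle and 445 CPM in cisplatin non-mitotic barcodes, and Cdkn2a 122 and 44.8 CPM. Rprm (chr2:54084093-54085552, minus strand), a p53-linked gene named for G2 arrest, was at 1.39 CPM (0.379 to 3.57) in vehicle. In cisplatin it was at 84.8 CPM (73.7 to 97.0), and the other barcodes measured 1.20 and 62.1 CPM. Of 18 measured p53 targets 3 were higher and none lower, the called ones being Cdkn1a, Bbc3 (an apoptosis activator, 34.8 and 56.4 CPM) and Rprm. The log2 ratio of Bbc3 was 0.53 in place of 0.68 with rule and counts thinned, below 1.5-fold. In the other barcodes 4 of 28 p53 targets were higher and 1 lower. Of 12 measured histone gene identifiers 8 were higher and 3 lower, with Hist1h1c at 173 and 409 CPM and Hist1h1e at 64.1 and 7.2 CPM. In the other barcodes, where 40 identifiers were measured, 9 were higher and 15 lower. The list median was -0.12 there and 0.92 in non-mitotic barcodes. These medians are over different sets of identifiers, so they do not show a difference between the classes. In the other barcodes Hist1h1c measured 250 and 365 CPM and Hist1h1e 95 and 11.3 CPM, the same directions as in non-mitotic barcodes.

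The leading genes between the libraries are given beside their levels in the other barcodes. Ccl27a (chr4:41769467-41774247, minus strand), a chemokine, measured 0.348 CPM (1 UMI) in vehicle and 56.4 CPM in cisplatin, and 0.981 and 47.5 CPM in the others. Igf2 (chr7:142650766-142666816, minus strand), the imprinted growth factor, measured 181 CPM (166 to 198) and 29.2 CPM (22.9 to 36.7), and 189 and 24.8 CPM in the others. Ceacam10 measured 2.79 and 50 CPM, against 2.47 and 49.1 CPM. Genes of the YAP and Hippo list were lower in 5 of 13 cases and higher in none, or in 3 of 13 once the median of all genes was taken off, and in the other barcodes 6 of 18 were lower and 2 higher. Hypoxia and glycolysis genes were lower in 5 of 26 cases and higher in none, a share near the 20.3% of all genes, and in the other barcodes 9 of 29 were lower and 1 higher. Slc16a3, a lactate exporter, measured 29.9 and 11.6 CPM, against 40.0 and 16.8 CPM.

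**Figure D5:**
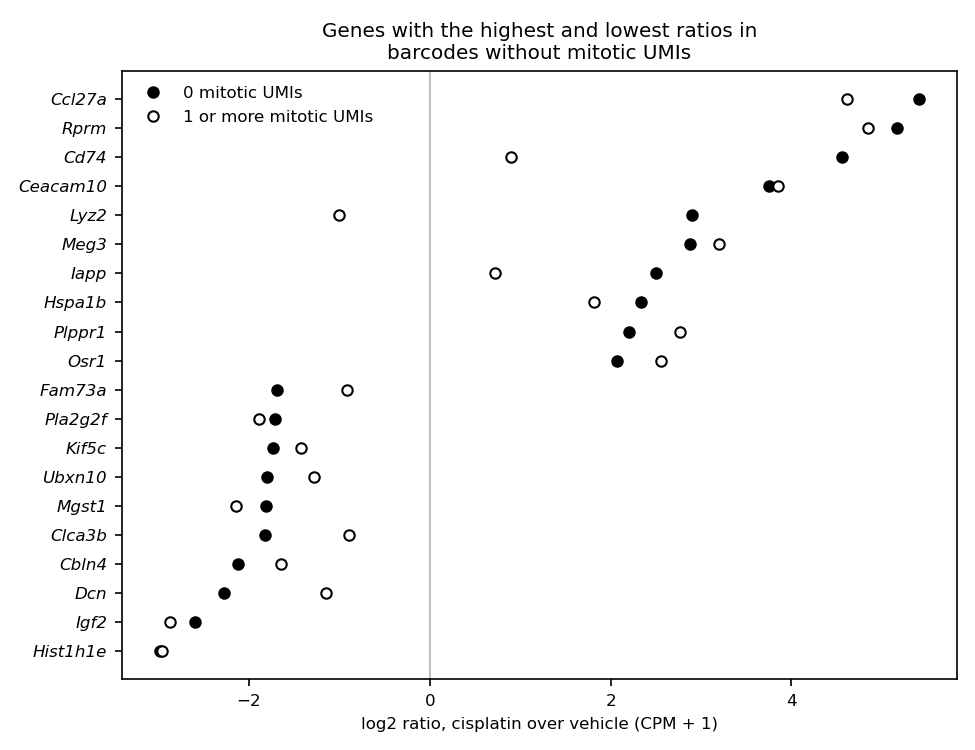
Log2 ratio of cisplatin over vehicle (x axis, CPM with 1 added) for the 10 highest and 10 lowest genes in non-mitotic barcodes (filled points), with the same ratio in the other barcodes (open points). Ccl27a is 5.41 and 4.61 and Igf2 -2.60 and -2.88, near each other, while Cd74, Lyz2 and Iapp, which rest on few barcodes, lie apart.

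Non-mitotic barcodes also varied among themselves. After thinning, the genes with the highest Fano factor (variance over mean) in vehicle were Malat1, Nupr1, Meg3, Ifi27l2a, Cxcl13, Klk1, Mt1, Resp18, Scgb1a1 and Actg1. In cisplatin they were Cd74, Lyz2, H2-Ab1, Nupr1, Iapp, Malat1, H2-Aa, Sprr1a, Mt1 and Ifit1. Nupr1, a stress-induced chromatin protein, had a Fano factor of 38.5 in vehicle and 69.1 in cisplatin, with 51.1% and 50.7% of its UMIs in 10 barcodes. Malat1, a nuclear noncoding RNA, was found in every barcode, with a mean of 124 and 141 UMIs. Ifit1 was found in 25.2% of cisplatin barcodes, and 10 of them held 52.1% of its UMIs. Klk1 was found in 18.0% of vehicle barcodes, 10 of which held 60.1%.

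The summed immediate early level spanned 18 to 114 UMIs per 4000 between the 5th and 95th percentile of vehicle non-mitotic barcodes (median 49) and 20 to 135 (median 61) in cisplatin. Barcodes high in it were also high in the cell cycle exit list, with a Spearman rho across barcodes of 0.617 in vehicle and 0.630 in cisplatin after the 2 shared genes were left out. The exit list still held Btg2, Klf4, Gadd45b and Gadd45g, and how far single genes carry this rho was not tested. Between the immediate early list and heat shock proteins rho was 0.303 and 0.395. Interferon genes and MHC class I genes gave 0.445 and 0.314. The G1/S and histone lists gave -0.240 and -0.251. These correlations are over 394 and 440 barcodes of 1 library each, which share depth after thinning and sum to a fixed total, and they are descriptions.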

How the data were processed

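Single-cell RNA was measured in 2 droplet libraries of GFP-sorted lung tumour cells, with 5000 cells loaded per lane per the labels. Per the file headers, the deposited matrices give counts of UMIs for 28692 genes in each barcode, and the values are whole numbers with no sign of normalization. Cell Ranger 2.0.2 and mm10 are named in the submitters' processing notes, with no role given. No doublet caller was run. Nothing ties the barcodes to animals, so each library counts as 1 sample.

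Non-mitotic barcodes were chosen by their counts. UMIs were summed per class, scaled to CPM and compared with 1 CPM added, a floor of 50 UMIs and a 1.5-fold call. Intervals are exact 95% (Poisson or Clopper-Pearson), and a count of 0 allows 3 counts. Thinning drew 4000 UMIs per barcode without replacement (seed 1). The members and lists were chosen with earlier results of these data known. Named genes are the 10 highest and 10 lowest ratios at a mean of 20 CPM or more, up to 4 genes per list with the largest ratio, the 10 highest Fano factors at a mean of 0.1 UMI or more, and fixed cell cycle genes; excluded from the extremes are the rule's own genes and mitochondrial, ribosomal, haemoglobin, predicted and sex-linked marker genes. Outside this rule Cdkn2b, Cks2, Fos, Hist1h1c, Mcm4, Mcm5, Mcm6 and Mcm7, and the comparison beside which some genes stand, were picked after their values were seen. Some items are not reported here.

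Alternatives changed the depth, filters, rule, comparison barcodes, scaling (TMM in edgeR 4.0.16, median-of-ratios in DESeq2 1.42.0, R 4.3.3), pseudocount, floor and fold. The requirement that intervals lie apart and the shares within depth bins were added after seeing the data. The steps were tested on simulated data. Python 3.11.15 was used with numpy 2.4.6, scipy 1.17.1, pandas 2.3.3 and matplotlib 3.10.9. Gene positions come from GENCODE on GRCm38, and promoters from RefSeq (GRCm38.p6).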

Additional observations from a re-analysis of the deposited data

Results flagged for a closer look

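In 7 genes reported here the ratio of non-mitotic to other barcodes had opposite directions in the libraries, 1.5-fold and clear of counting error in both, and the difference was not tested. Log2 ratios in vehicle and cisplatin were -2.33 and 1.66 for Obp2a, -2.29 and 1.37 for Cd74, -2.19 and 1.21 for Lgals3, -1.70 and 1.71 for H2-Ab1, -1.65 and 1.31 for H2-Eb1, -1.02 and 2.89 for Lyz2 and -0.69 and 1.09 for Iapp. Obp2a, Lgals3 and H2-Eb1 were at 0 UMIs in vehicle non-mitotic barcodes, so their vehicle ratios depend on the 1 CPM added. In cisplatin, all 75 H2-Ab1, all 39 H2-Eb1 and all 17 Lgals3 UMIs each lay in 1 non-mitotic barcode, as did 20 of 21 Obp2a UMIs.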

How the results depend on the processing

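No paired analysis was possible because each group is 1 library. The share of non-mitotic barcodes in vehicle and cisplatin was 28.0% and 25.1% after thinning, 10.5% and 7.62% at a minimum of 6000 UMIs, 14.8% and 20.2% at 3000 UMIs, and 31.3% and 36.2% with at most 1 mitotic UMI. By depth bin it was 23.3%, 24.6%, 18.2%, 11.1% and 0.894% in vehicle and 32.8%, 24.4%, 10.3%, 6.66% and 1.96% in cisplatin. The share was within its interval in the other 6 cases. Counts of genes moved by over 1.5 times in 37 cases and by less in 55. In vehicle, higher and lower genes were 217 and 850 in barcodes of 4000 to 8000 UMIs, 210 and 1006 with rule and counts thinned, 55 and 705 with 5 CPM added, 133 and 895 at a floor of 200 UMIs, 1589 and 5362 at 1 UMI, 51 and 804 at 2-fold, and 149 and 883 with intervals apart. In cisplatin, higher genes were 323 in barcodes of 4000 to 8000 UMIs, 348 thinned and 960 at a minimum of 6000 UMIs; higher and lower genes were 173 and 782 with 5 CPM added, 231 and 878 at a floor of 200 UMIs, 1888 and 5187 at 1 UMI, 84 and 705 at 2-fold, and 278 and 905 with intervals apart. Between libraries, higher genes were 841 with TMM, and higher and lower genes 879 and 1176 with median-of-ratios, 228 and 539 at a floor of 200 UMIs, 2287 and 4731 at 1 UMI and 127 and 518 at 2-fold, with 1154 lower at intervals apart.

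Across the alternatives 98 list medians moved, 674 did not and none reversed. Among named genes 19 ratios reversed, 530 moved and 3473 were the same, and the cause was not tested. In vehicle these were Vim at 0.49 (4000 to 8000 UMIs) and 2.64 (at most 1 mitotic UMI), Lgals3 at 1.5 (at most 1), Ndrg4 at 0.17 (counts thinned), and Tubb3 at 0.025 and Tead3 at -0.14 (rule and counts thinned). In cisplatin they were Dcn at 0.12 (thinned) and 0.40 (at most 1), Tm4sf1 at 0.39 (at most 1), Lyz2 at -0.049, Lgals3 at -1.92, Sav1 at 0.10 and Cd74 at -3.36 (minimum of 6000 UMIs), Lgals3 at -1.55 (without barcodes with other markers), and Hspb1 at -0.17, Aldoc at -0.13 and Meg3 at -1.03 (delta-like barcodes added). Between libraries Lyz2 was -0.61 (at most 1) and -0.70 (without barcodes with other markers).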

Other observations

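Some differences between the libraries reached all classes of barcode alike. Rpl29, a ribosomal protein gene, measured 698 CPM (668 to 729) in vehicle and 51.6 CPM (43.1 to 61.3) in cisplatin non-mitotic barcodes, and 675 and 50.5 CPM in the others. Of 83 cytosolic ribosomal protein genes 12 were lower in cisplatin non-mitotic barcodes and none higher, and 11 were lower in the others, shares below the 20.3% and 20% of all genes that were lower. With the median of all genes taken off, 6 were lower and 2 higher, and in the others 5 and 2. Rps12 measured 1258 and 607 CPM, and Rpl12 798 and 387 CPM. Cxcl13, a B cell attracting chemokine, measured 526 and 178 CPM in non-mitotic and 381 and 129 CPM in other barcodes.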
